A study of Homo sapiens with 16 samples.

Results

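The response to stimulation that Jurkat and BJAB have in common was measured in 8 of the 16 RNA-seq libraries of the series, 2 untreated and 2 stimulated per line. Jurkat is a human T cell leukaemia line and BJAB a human B cell lymphoma line, and both are labelled as wild type. Jurkat cells received 5 µg/ml of an antibody to CD3, the signalling part of the T cell receptor, with 100 ng/ml of PMA, a phorbol ester that activates protein kinase C without the receptor. BJAB cells received 10 µg/ml of an antibody to IgM, the B cell receptor, with 4 µg/ml of an antibody to CD40, a receptor of the TNF receptor family. Cells were taken after 4 hours, and the controls had no ligand. Each mixture thus holds an agent that does not act through the antigen receptor, and no library received 1 agent alone, so the share of a change that is due to the antigen receptor cannot be told apart from that of PMA or CD40. Each line had its own ligands, so line and ligand cannot be told apart either. The other 8 libraries, from the monocytic lines THP-1 (which carries dCas9-KRAB, a Cas9 without cutting activity fused to a repressor domain) and U937 (wild type), serve here as a comparison. They were untreated or received lipopolysaccharide (LPS, a component of bacterial outer membranes) for 4 hours, at 1 µg/ml in THP-1 and 200 ng/ml in U937.

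T and B cell receptors share a wiring plan: tyrosine kinases next to the receptor open a calcium branch that acts on NFAT, a Ras and MAP kinase branch that acts on immediate-early genes such as EGR1, and a protein kinase C branch that frees NF-kB from its inhibitors. PMA enters the MAP kinase and NF-kB branches below the receptor, and CD40 feeds the NF-kB branch. Among the early products are transcription factors, surface molecules such as CD69, survival proteins, chemokines and the inhibitors that switch each branch off again.

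The libraries held 6268801 to 8170850 recovered reads. The T cell markers summed to 7206 to 8824 TPM (a measure of transcript share that is scaled to library size and gene length) in the Jurkat libraries and 95.0 to 112 TPM in BJAB. B cell markers summed to 187 to 215 TPM in Jurkat and 4097 to 9750 TPM in BJAB. The marker sums thus went with the labelled lines, while CD79A, a B cell receptor chain, stood at 135 and 161 TPM in the Jurkat controls. IGHM, the target of anti-IgM, was not analysed here. The BJAB library labelled stimulated replicate 1 stood apart. In log2(TPM + 1), its replicate pair differed with a standard deviation of 1.00 over 12959 genes, against 0.36 to 0.41 in the other 3 pairs. With genes cut into 5 equal groups by GC content, its median difference from the controls went from 0.08 in the group of lowest GC content to -1.32 in the highest, where the other stimulated library had -0.24. The housekeeping gene ACTB went from 8823 and 9165 TPM in the BJAB controls to 1858 TPM in this library and 7488 TPM in the other. As a set, 28 housekeeping genes had a median BJAB change of -0.23, beside -0.21 for all tested genes. Counts of list members that passed are given with this library and, where they changed, without it. No label says whether replicates were separate cultures, so the p-values measure the spread between these libraries, which may be technical. In the fit of 1 effect over both lines below, that spread also holds any difference between the lines in their change.

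**Figure D1:**
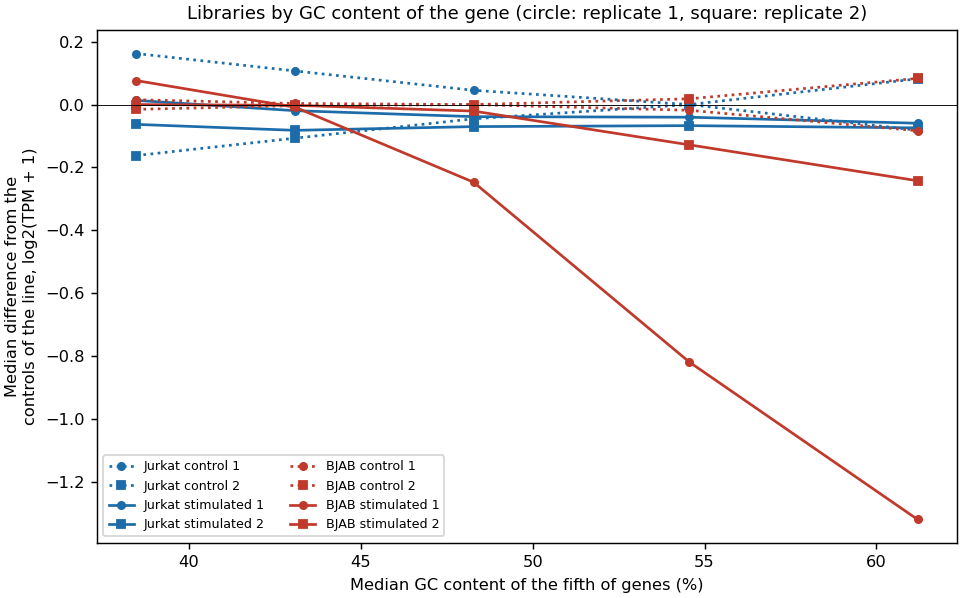
Median difference of each library from the controls of its line (a control from the other control), in log2(TPM + 1), for 5 equal groups of genes ordered by GC content (x axis, median GC content in percent). The BJAB stimulated replicate 1 reaches -1.32 in the group with the highest GC content, and the other 7 libraries lie between -0.24 and 0.16.

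To ask which genes responded in the same direction in both lines, 1 treatment effect was fitted with the line as a covariate to log2(TPM + 1) of the 12959 genes that had at least 1 TPM in at least 2 of the 8 libraries. At an adjusted p below 0.05 (limma, Benjamini-Hochberg over all tested genes), 24 genes were higher after stimulation, 0.185% of those tested, and 13 were lower, 0.10%. In each line the controls and stimulated libraries of all 37 were also fully separated, in the direction of the common change, and they are the genes called shared below. Separation alone was common: 4.61% of the tested genes lay above the controls in both lines, 13.1% below in both, and 9.25% in opposite directions. At an unadjusted p below 0.05 there were 2239 genes. The shared rises spanned 1.07 to 5.23 on the log2 scale and the shared falls -1.08 to -2.33. AMPD3 was the last gene inside the threshold with an adjusted p of 0.0477, and LOC100506688 the first outside with 0.0535.

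Over all tested genes the changes of Jurkat and BJAB were only weakly related, with Pearson's r = 0.138 and Spearman's coefficient = 0.132 across 12959 genes, which are not independent replicates. Without BJAB stimulated replicate 1, r was 0.177. The median gene moved by -0.16 over both lines, -0.05 in Jurkat and -0.21 in BJAB, and median-of-ratios scaling brought the median over both lines to -0.02. The changes of the 37 genes are large against this shift, and none of them turned its direction under the alternatives run (21 for each gene, and 20 for SOX12).

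**Figure D2:**
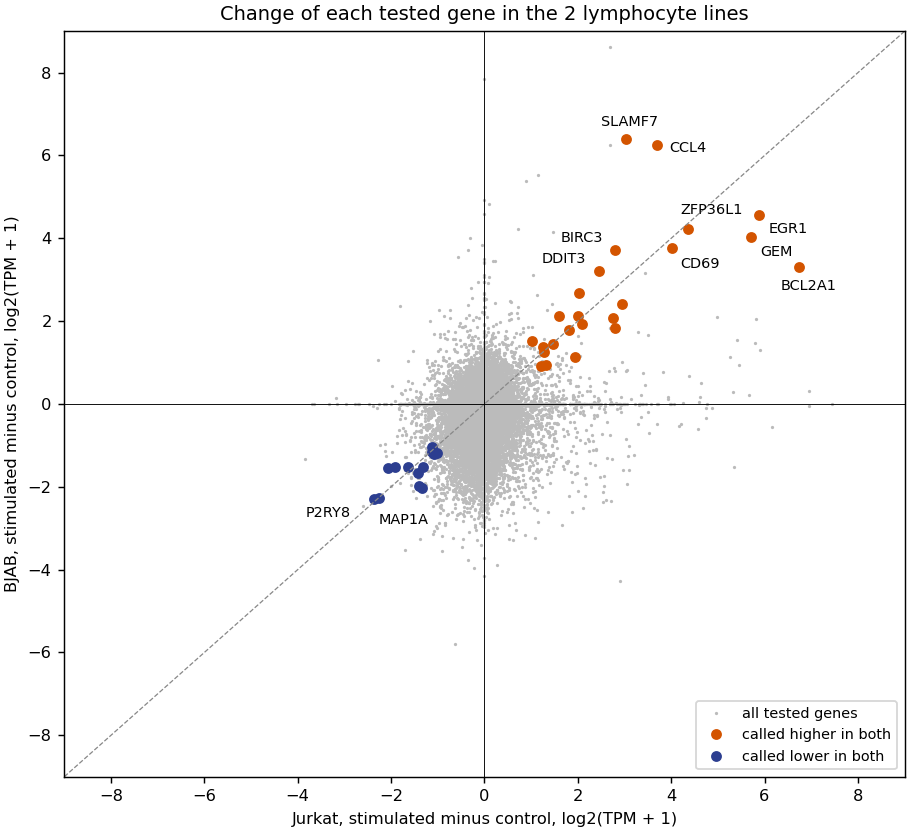
Change of each of the 12959 tested genes in Jurkat (x axis) and BJAB (y axis), stimulated minus control in log2(TPM + 1), with the 24 shared rises in orange and the 13 shared falls in blue. The dashed line marks equal change; ZFP36L1, at 4.35 and 4.23, lies next to it, and BCL2A1 and SLAMF7 lie away from it on opposite sides.

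The number of calls moved with single libraries. EGR1, ZFP36L1 and CD69 passed in each of the 21 alternative analyses, and GEM in 20 of 21. Leaving out any of the 4 Jurkat libraries or either BJAB control left 4 to 6 shared rises and no shared fall, and every gene left was among the 37. Leaving out BJAB stimulated replicate 1 had the opposite effect: 173 genes rose and 209 fell, all 37 among them. Leaving out BJAB stimulated replicate 2 left 25 rises and 23 falls, 27 of the 37 among them. Setting the medians of genes of like GC content equal between the libraries of a line kept 32 of the 37, among 58 rises and 25 falls, and 4 of the 5 lost were falls. The median GC content was 47.2% in the rises, 51.7% in the falls and 48.3% in all tested genes.

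Of the 37 genes, 28 had an entry in the RefSeq table of promoters used here (build GRCh38.p14, 250 bases before to 50 bases after the annotated start of 27305 genes). Each window was searched on both strands for 6 motifs: the NF-kB consensus, the CArG box of serum response factor, the cyclic AMP response element TGACGTCA, the AP-1 site TGANTCA, the EGR site GCGTGGGCG and the ETS site CCGGAAG. No matches of different motifs overlapped in the windows of the 37 genes. The NF-kB consensus was in 3 of the 15 windows of shared rises, none of the 13 of shared falls, 5.72% of all promoters and 6.37% of those of the 10206 tested genes in the table. CArG boxes were in 1 of the 15 (EGR1), 1.29% of all promoters and 1.04% of those of tested genes. The AP-1 site was in 2 of the 15 (ANXA2 and DDIT3), 7.76% of all and 4.55% of tested genes. The cyclic AMP response element was in 1 of the 15 (BACH2), 1 of the 13 (PTPRU), 1.98% of all and 3.37% of tested genes. The ETS site was in 1 of the 15 (DDIT3), 1 of the 13 (AMPD3), 10.7% of all and 19.8% of tested genes. The EGR site was in none of the 28, 0.784% of all and 1.31% of tested genes. With windows this few the shares are a description, and a match is not a site shown to be used. The 4 windows shown, cut at the start site, are those of EGR1, whose 2 CArG boxes stand in capitals, and of BIRC3, NFKB1 and NFKBIA, where capitals mark the NF-kB consensus. They are shown because EGR1 was the largest shared rise of an immediate-early gene and the other 3 are the NF-kB pathway genes that rose in both lines.
EGR1 (chr5:138465229-138465478, plus strand): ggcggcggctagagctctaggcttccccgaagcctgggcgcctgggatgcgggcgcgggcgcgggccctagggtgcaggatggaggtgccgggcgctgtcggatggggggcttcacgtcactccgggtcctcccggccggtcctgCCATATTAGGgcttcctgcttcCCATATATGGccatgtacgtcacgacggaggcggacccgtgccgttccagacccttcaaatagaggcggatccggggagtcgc
BIRC3 (chr11:102317234-102317483, plus strand): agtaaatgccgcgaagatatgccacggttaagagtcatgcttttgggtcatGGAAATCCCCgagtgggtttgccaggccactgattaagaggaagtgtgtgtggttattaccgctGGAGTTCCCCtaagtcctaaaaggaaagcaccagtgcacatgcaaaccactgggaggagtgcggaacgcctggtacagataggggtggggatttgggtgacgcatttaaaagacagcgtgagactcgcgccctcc
NFKB1 (chr4:102501109-102501358, plus strand): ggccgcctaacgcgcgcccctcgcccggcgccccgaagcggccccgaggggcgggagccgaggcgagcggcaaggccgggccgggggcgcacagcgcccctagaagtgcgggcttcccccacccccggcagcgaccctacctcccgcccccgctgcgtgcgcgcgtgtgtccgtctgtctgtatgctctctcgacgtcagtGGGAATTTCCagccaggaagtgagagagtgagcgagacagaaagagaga
NFKBIA (chr14:35404750-35404999, minus strand): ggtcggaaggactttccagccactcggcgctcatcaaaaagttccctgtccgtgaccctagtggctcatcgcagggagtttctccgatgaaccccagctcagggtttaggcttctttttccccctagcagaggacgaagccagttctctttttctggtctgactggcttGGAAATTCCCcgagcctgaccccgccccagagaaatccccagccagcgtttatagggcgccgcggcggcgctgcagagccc
The EGR1 boxes begin 105 and 83 bases before the start. The matches of BIRC3 begin 199 and 135 bases before it, that of NFKB1 49 bases and that of NFKBIA 81 bases before it.

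The immediate-early transcription factors EGR1 and KLF10 rose in both lines. EGR1, a zinc-finger factor induced within minutes by MAP kinase signalling, stood at 5.77 and 5.2 TPM in the Jurkat controls and 361 and 408 TPM after stimulation. In BJAB it went from 10 and 14 TPM to 309.8 and 296 TPM. All 4 stimulated libraries lay far above all 4 controls, and the lines reached like levels. The fitted change was 5.23 ± 0.29 (SE) in log2(TPM + 1), with an adjusted p of 0.000441. KLF10, a Krüppel-like factor known as an early target of TGF-beta, was at 13.9 and 13.6 TPM in the Jurkat controls and 104 and 121 TPM after stimulation, and at 27.8 and 23.7 against 107 and 187 TPM in BJAB. Controls and stimulated libraries did not overlap in either line, and the change was 2.68 ± 0.23 (adjusted p = 0.0069).

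Of the 27 genes on the immediate-early list, 25 were tested, and EGR1 and KLF10 were the 2 that passed. Another 6 lay above the controls in both lines without passing, so 8 of 25 (32%) did, against 4.61% of all tested genes. The gene lists were chosen with earlier results of these data known, so the shares of list members here and below are a description and not a test. The median change of the list was 1.40, with 1.99 in Jurkat and 0.48 in BJAB. Without BJAB stimulated replicate 1, 10 members rose and 1 fell. The following members were chosen after their values were seen. FOS, a subunit of AP-1, had 1.55 and 0.322 TPM in the Jurkat controls, 19.3 and 20.4 TPM after stimulation, 6.49 and 5.1 TPM in the BJAB controls and 10.8 and 38.3 TPM after stimulation (adjusted p = 0.0935). NAB2, a corepressor that binds EGR proteins and is itself induced by them, had 1.95 and 2.56, then 34.3 and 34.4 TPM in Jurkat, and 1.77 and 1.97, then 9.36 and 62.8 TPM in BJAB (adjusted p = 0.0535). In both genes the stimulated BJAB libraries were above their controls and far from each other, the low value being that of replicate 1. MYC went the other way, with 377 and 415 TPM against 127 and 137 TPM in Jurkat and 218 and 227 TPM against 33.6 and 119 TPM in BJAB. Its change of -1.69 ± 0.35 did not pass in all libraries (adjusted p = 0.101) and did without BJAB stimulated replicate 1 (0.00529).

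ZFP36L1 binds AU-rich elements in messenger RNAs, many of them from cytokine and immediate-early genes, and leads to their decay. It was at 13.4 and 12.4 TPM in the Jurkat controls, 288 and 277 TPM after stimulation, 29.2 and 25.3 TPM in the BJAB controls and 549 and 505 TPM after stimulation. Replicates lay close together in all 4 groups, and the lines moved alike: 4.35 ± 0.19 in Jurkat and 4.23 ± 0.19 in BJAB. The common change of 4.29 ± 0.14 had the lowest adjusted p of all tested genes, 2.32e-05. It was the 1 member of 18 tested on the mRNA decay list that rose, and the list as a whole had a median of 0.03. Without BJAB stimulated replicate 1, 5 members rose, among them ZFP36 itself (chosen after its values were seen), with 20.2 and 30.5, then 62.5 and 56.8 TPM in Jurkat, and 11.3 and 12.9, then 3.66 and 21.5 TPM in BJAB.

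DUSP10, a phosphatase of the MAP kinases p38 and JNK, rose from 6.0 and 6.72 to 28.4 and 29.8 TPM in Jurkat and from 3.25 and 7.23 to 27.7 and 49.8 TPM in BJAB. The change was 2.36 ± 0.30 (adjusted p = 0.0284), with the larger estimate in BJAB (2.69 ± 0.40) than in Jurkat (2.03 ± 0.40) and a difference within error (adjusted p = 0.554). It was the 1 of 18 tested MAP kinase feedback genes that passed. Of the 18, 6 (33.3%) lay above the controls in both lines, beside 4.61% of all tested genes, and none lay below in both. The list's median was 1.20, with 1.49 in Jurkat and 0.27 in BJAB, and 5 members rose without BJAB stimulated replicate 1. DUSP2 and DUSP5, chosen after their values were seen, are phosphatases of ERK and other MAP kinases in the nucleus. DUSP2 had 40.8 and 78.1 TPM in the Jurkat controls, 1516 and 2179 TPM after stimulation, 60.3 and 70.3 TPM in the BJAB controls and 96.1 and 814 TPM after stimulation (adjusted p = 0.124). DUSP5 had 0.22 and 0.549, then 69.9 and 84.4 TPM in Jurkat, and 12.6 and 6.96, then 60.1 and 29.2 TPM in BJAB (adjusted p = 0.0932). The stimulated libraries were above the controls in both lines for both genes, and for DUSP5 the change was larger in Jurkat (adjusted p of the difference 0.0252).

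GEM is a small GTP-binding protein that inhibits voltage-gated calcium channels. It had 0.383 and 0.318 TPM in the Jurkat controls and 68.6 and 70.8 TPM after stimulation. It was listed at 0 in both BJAB controls and had 18.8 and 12.7 TPM after stimulation. It was thus near or at 0 in every control and present in every stimulated library, with 103 to 516 recovered reads in each. Its adjusted p was 0.00244, and no fold change is given for BJAB because its controls were at 0.

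The NF-kB branch gave 3 shared rises among 23 tested members of its list, the third of which also acts in cell survival. NFKBIA encodes the inhibitor that returns NF-kB to the cytoplasm and is itself an NF-kB target. It had 45.3 and 50.5 TPM in the Jurkat controls, 315 and 367 TPM after stimulation, 29.5 and 32.3 TPM in the BJAB controls and 84.5 and 149.8 TPM after stimulation. NFKB1, the gene of the p50 subunit and its p105 precursor, had 11.8 and 10.7 TPM, then 47.8 and 53.8 TPM in Jurkat, and 5.18 and 4.47 TPM, then 29.4 and 15.2 TPM in BJAB. In neither gene did the groups overlap. NFKBIA changed by 2.32 ± 0.27 and NFKB1 by 2.01 ± 0.23, each with an adjusted p of 0.0221. BIRC3, a ubiquitin ligase that acts in TNF receptor signalling and protects from cell death, had 12.1 and 10.7 TPM in the Jurkat controls, 93.1 and 76.5 TPM after stimulation, 10 and 11 TPM in the BJAB controls and 301 and 75.8 TPM after stimulation. Its stimulated BJAB libraries differed widely, with replicate 1 the higher, and both were above the controls. The change was 3.26 ± 0.42 (adjusted p = 0.0292), and 2.77 without replicate 1.

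Over the NF-kB list, 6 of 23 members (26.1%) lay above the controls in both lines, beside 4.61% of all tested genes. None lay below in both. The median was 0.42, from 1.24 in Jurkat and -0.37 in BJAB, and without BJAB stimulated replicate 1, 8 members rose. TNFAIP3, the deubiquitinase A20 that ends NF-kB signalling, was chosen after its values were seen. It had 37.1 and 34.7 TPM in the Jurkat controls, 108 and 68.3 TPM after stimulation, 0.722 and 0.928 TPM in the BJAB controls and 1.57 and 7.79 TPM after stimulation. It did not pass in all libraries (adjusted p = 0.196) and did without that replicate (0.0202).

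Surface molecules of activated lymphocytes contributed 3 shared rises of 32 tested list members. CD69, a C-type lectin that holds activated lymphocytes in tissue and is the standard early activation marker, had 50.3 and 37.5 TPM in the Jurkat controls and 627 and 815 TPM after stimulation. In BJAB it had 1.02 and 1.12 TPM and then 28.6 and 26 TPM. The level was some way higher in Jurkat throughout, and the change was alike in the lines, 4.01 ± 0.25 in Jurkat and 3.77 ± 0.25 in BJAB, with an adjusted p of 0.000184 for the common change of 3.89 ± 0.18. CD83, a marker of activated B cells and mature dendritic cells, went from 54.9 and 47.5 to 181 and 239 TPM in Jurkat and from 14.6 and 12.5 to 43 and 89.5 TPM in BJAB. Its change of 2.06 ± 0.25 passed (adjusted p = 0.0269).

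SLAMF7, a receptor of the SLAM family found on plasma cells, natural killer cells and activated lymphocytes, had 0.664 and 0 TPM in the Jurkat controls and 10.6 and 8.58 TPM after stimulation. In BJAB it had 10 and 10.4 TPM and then 767 and 1173 TPM. It passed as a common change (adjusted p = 0.0396), but the stimulated BJAB libraries stood far above the stimulated Jurkat libraries, and the change was larger in BJAB (Jurkat minus BJAB -3.37 ± 0.47, adjusted p = 0.0172). Of the activation list, 9 of 32 (28.1%) lay above the controls in both lines, beside 4.61% of all tested genes. None lay below in both, and the median was 0.55 (1.46 in Jurkat, 0.00 in BJAB). Leaving out BJAB stimulated replicate 1, 6 members rose. CLEC2B, which is not on that list and was named after its values were seen, encodes a C-type lectin-like molecule known as AICL. It is separated from CD69 by 1 protein-coding gene on chromosome 12 of the RefSeq annotation. It went from 25.7 and 25.6 to 88.9 and 96.7 TPM in Jurkat and from 2.01 and 2.47 to 12.7 and 7.93 TPM in BJAB. Its change was 1.80 ± 0.19 (adjusted p = 0.0181), with 1.82 ± 0.27 and 1.78 ± 0.27 in the 2 lines.

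The chemokine CCL4, which draws T cells and monocytes, was listed at 0 in all 4 controls. It had 17.5 and 8.08 TPM in the stimulated Jurkat libraries and 83 and 68.3 TPM in the stimulated BJAB libraries, from 18 to 216 recovered reads. It was thus present in every stimulated library and in no control, with an adjusted p of 0.0169 and no fold change because the controls were at 0. CCL4 has near-identical gene copies, and the files hold uniquely aligned reads, so its level may be understated. Of 20 tested cytokine and chemokine genes, 3 (15%) lay above the controls in both lines, beside 4.61% of all tested genes. CCL4 was the 1 of the 20 that passed. The count was 3 rises without BJAB stimulated replicate 1. The list's median was 1.19, from 2.27 in Jurkat and 0.00 in BJAB. Its neighbour CCL3 and the chemokine receptor CCR7 are described with the genes called in each line separately.

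Of 19 tested genes of survival and cell death, BCL2A1 was the 1 that passed, and 3 rose without BJAB stimulated replicate 1. It encodes a protein of the BCL2 family that blocks apoptosis and is a known NF-kB target. It had 1.48 and 0.736 TPM in the Jurkat controls and 253 and 191 TPM after stimulation, and 24.3 and 29.7 against 321 and 239 TPM in BJAB. The stimulated levels of the lines overlapped, while the controls of Jurkat were far below those of BJAB. The common change was 5.03 ± 0.64 (adjusted p = 0.0284), and it was larger in Jurkat by 3.42 ± 0.41 (adjusted p = 0.0112). In both lines 2 of the 19 (10.5%) lay above and 3 (15.8%) below the controls, beside 4.61% and 13.1% of all tested genes. The median was -0.10.

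Of 35 tested transcription factors of lymphocyte development, 2 rose. BACH2, a repressor that holds back plasma cell formation in B cells and effector genes in T cells, went from 4.2 and 3.78 to 35.8 and 29.5 TPM in Jurkat and from 0.589 and 0.372 to 5.74 and 4.73 TPM in BJAB. Its change was 2.41 ± 0.21 (adjusted p = 0.00752), and the BJAB controls rested on 16 and 11 reads. ID3, which blocks E proteins and is a target of EGR1 downstream of antigen receptors, went from 65.8 and 80.7 to 139 and 157 TPM in Jurkat and from 264 and 258 to 741 and 749 TPM in BJAB, a change of 1.26 ± 0.16 (adjusted p = 0.0284, and 0.0514 with GC bins centred). CBFB, the partner of the RUNX factors, was named after its values were seen. It went from 59.3 and 53.2 to 205 and 235 TPM in Jurkat and from 73.4 and 55.3 to 143 and 138 TPM in BJAB (1.54 ± 0.21, adjusted p = 0.0396). On the list as a whole, 6 of 35 (17.1%) lay above the controls in both lines, beside 4.61% of all tested genes. Below them lay 7 (20%), beside 13.1%, and the median was -0.39. The counts were 3 rises and 1 fall without BJAB stimulated replicate 1. One factor, BCL11A, which B cell development needs and which was not on this list, fell and is described with the falls.

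DDIT3 (CHOP), a factor of the unfolded protein and integrated stress responses, went from 27.9 and 42.4 to 179.9 and 207 TPM in Jurkat and from 48.8 and 35.5 to 527 and 298 TPM in BJAB. Its change was 2.84 ± 0.27 (adjusted p = 0.0134). It was the 1 of 23 stress genes that passed, and the list had a median of 0.51. In both lines 7 of 23 (30.4%) lay above and 3 (13%) below the controls, beside 4.61% and 13.1% of all tested genes. Leaving out BJAB stimulated replicate 1, 6 rose and 3 fell. Among members chosen after their values were seen, the endoplasmic reticulum chaperone HSPA5 had 334 and 358 TPM in the Jurkat controls, 963 and 1063 TPM after stimulation, 1177 and 902 TPM in the BJAB controls and 1515 and 1868 TPM after stimulation (adjusted p = 0.0903, and 0.00799 without BJAB stimulated replicate 1). HERPUD1, of the degradation pathway of that compartment, had 76.8 and 74.3, then 149.8 and 157 TPM in Jurkat, and 175 and 148, then 814 and 431 TPM in BJAB (adjusted p = 0.0903, and 0.00418 without that replicate). The chaperones of the heat shock response DNAJB1, HSPA1A and HSPA1B lay below the controls in both lines, DNAJB1 at 218 and 249.9 against 139 and 132 TPM in Jurkat and 333 and 301 against 101 and 205 TPM in BJAB (adjusted p = 0.144). Without that replicate all 3 fell, with adjusted p-values of 0.0127, 0.0427 and 0.0355. HSPA1A and HSPA1B are near-identical copies, so uniquely aligned reads leave their levels uncertain.

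A further 5 shared rises, named after their values were seen, changed by 1.13 to 1.86. LPIN1, a phosphatidate phosphatase of lipid synthesis, went from 15.7 and 12.7 to 47.9 and 42 TPM in Jurkat and from 9.48 and 10.7 to 37.9 and 58.3 TPM in BJAB (1.86 ± 0.22, adjusted p = 0.0228). RNF19A, a ubiquitin ligase, went from 17.9 and 20.1 to 55 and 53.3 TPM and from 10.1 and 15.7 to 34 and 38 TPM (1.45 ± 0.18). JMJD1C, of the family of jumonji histone demethylases, changed by 1.31 ± 0.17. It had 20.3 and 18.7 TPM in the Jurkat controls, 51.8 and 43.9 TPM after stimulation, 15.8 and 17.7 TPM in the BJAB controls and 50.7 and 40.1 TPM after stimulation. ANXA2, a membrane-binding protein with processed pseudogenes that can take part of its reads, changed by 1.27 ± 0.18, and ANKRD10 by 1.13 ± 0.16. These 2 did not pass in BJAB on its own (adjusted p = 0.0563 and 0.0562) and did in Jurkat (0.0475 and 0.0163).

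**Figure D3:**
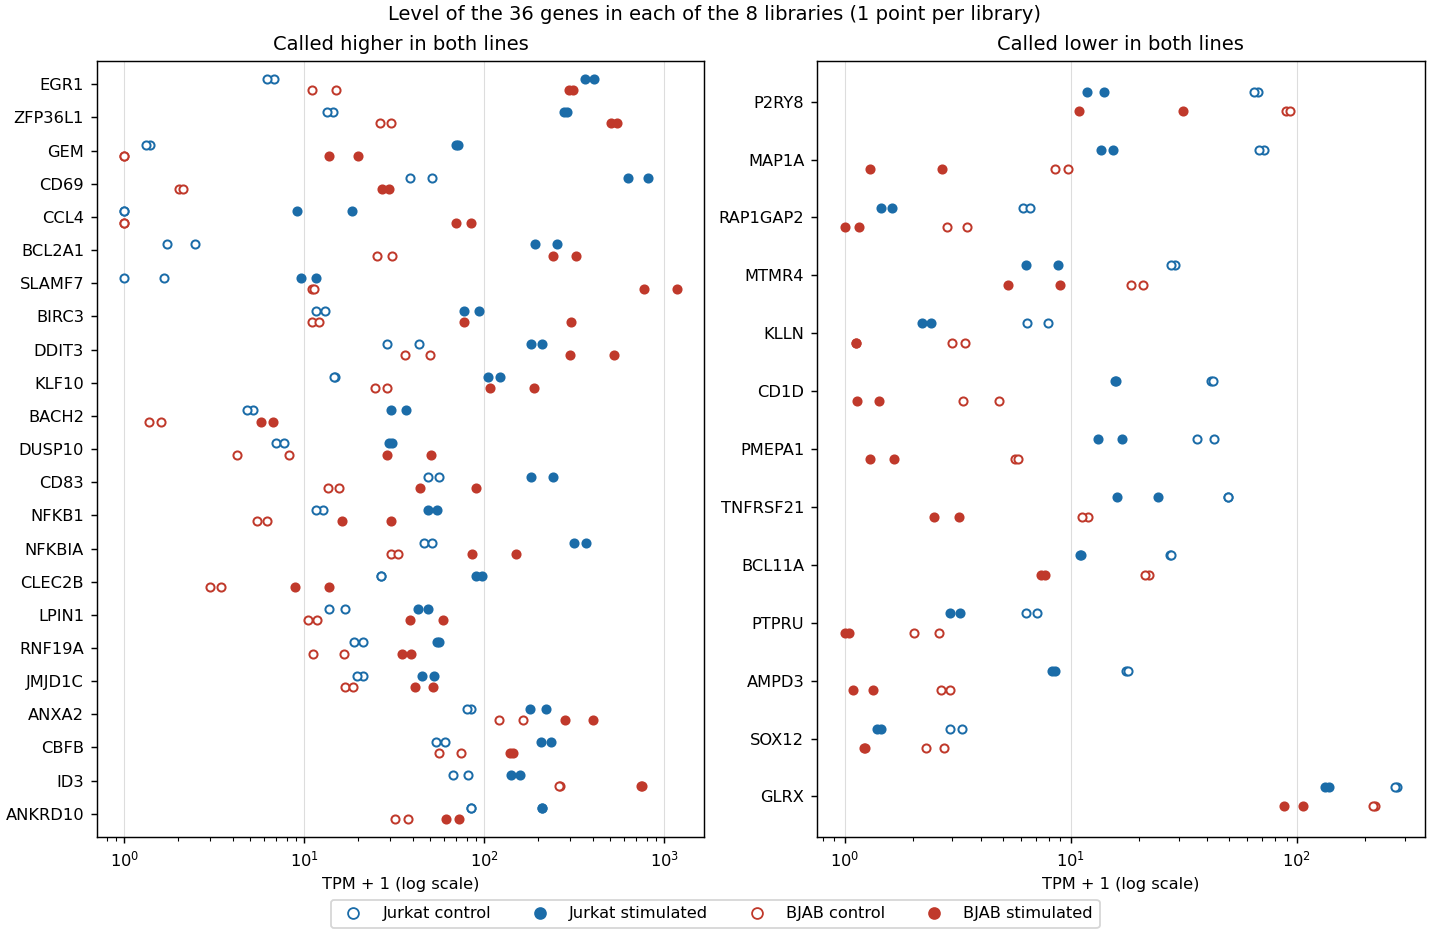
TPM + 1 on a log axis for 23 of the 24 shared rises (left) and the 13 shared falls (right), with 1 point per library, open for controls and filled for stimulated libraries, Jurkat in blue and BJAB in red. In every row the filled points of a line lie on the same side of its open points, and in EGR1 the stimulated libraries of the 2 lines reach 296 to 408 TPM.

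The shared falls had a median change of -1.58, against 2.34 for the rises, and adjusted p-values of 0.0169 to 0.0477. In bulk RNA, fewer cells of a type and less RNA per cell cannot be told apart. P2RY8, a G protein-coupled receptor that confines germinal centre B cells and whose gene lies in a region shared by the X and Y chromosomes, had 66.2 and 63.6 TPM in the Jurkat controls, 13.1 and 10.8 TPM after stimulation, 88.3 and 92.1 TPM in the BJAB controls and 9.86 and 30.5 TPM after stimulation. The fall was -2.33 ± 0.31 (adjusted p = 0.0375) and of like size in the lines (-2.36 ± 0.47 and -2.30 ± 0.47). CD1D, which presents lipid antigens to natural killer T cells, had 40.7 and 41.8 TPM in the Jurkat controls, 14.8 and 14.6 TPM after stimulation, 2.35 and 3.82 TPM in the BJAB controls and 0.135 and 0.427 TPM after stimulation (-1.54 ± 0.20, adjusted p = 0.0284). TNFRSF21 (death receptor 6) went from 48.7 and 48.7 to 23.4 and 15.1 TPM in Jurkat and from 11 and 10.2 to 1.48 and 2.22 TPM in BJAB (-1.68 ± 0.24). CD1D in the stimulated BJAB libraries rested on 2 and 6 reads. These surface molecules lay lower in all 4 stimulated libraries than in the controls of their line.

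BCL11A, a zinc-finger repressor of lymphoid progenitors and B cells, fell with close replicates: 26.4 and 26.8 TPM in the Jurkat controls, 9.97 and 10.1 TPM after stimulation, 21.2 and 20.3 TPM in the BJAB controls and 6.4 and 6.66 TPM after stimulation. The change was -1.43 ± 0.16 (adjusted p = 0.0195). GLRX, the cytosolic glutaredoxin that reduces protein disulfides with glutathione, had the highest level among the falls, with 276 and 272 TPM, then 132 and 137 TPM in Jurkat, and 221 and 216 TPM, then 106 and 86.3 TPM in BJAB (-1.10 ± 0.13, adjusted p = 0.0284). MAP1A, a microtubule-associated protein, had 70.4 and 67.1 TPM, then 12.7 and 14.5 TPM in Jurkat, and 8.72 and 7.55 TPM, then 0.299 and 1.7 TPM in BJAB (-2.27 ± 0.25, adjusted p = 0.0194). MTMR4, a phosphatase of phosphoinositide lipids, went from 27.8 and 26.7 to 7.81 and 5.34 TPM and from 17.5 and 19.9 to 4.31 and 7.95 TPM (-1.72 ± 0.23). The groups of these 4 genes did not overlap in either line.

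The remaining 6 falls were named after their values were seen. RAP1GAP2, which switches off the GTPase Rap1, had 5.16 and 5.61 TPM, then 0.626 and 0.448 TPM in Jurkat, and 1.84 and 2.49 TPM, then 0 and 0.161 TPM in BJAB (-1.80 ± 0.19, adjusted p = 0.0169). PMEPA1, which limits TGF-beta signalling, went from 42 and 35.2 to 12.2 and 15.8 TPM and from 4.65 and 4.84 to 0.65 and 0.293 TPM (-1.69 ± 0.21). KLLN, a p53 target, changed by -1.58 ± 0.17, the receptor phosphatase PTPRU by -1.15 ± 0.17, the AMP deaminase AMPD3 by -1.14 ± 0.17 and the factor SOX12 by -1.08 ± 0.16. In BJAB these 4 genes and RAP1GAP2 were at 2.49 TPM or less in the controls, and their stimulated BJAB libraries held 0 to 7 recovered reads each, so the size of their fall there is poorly set. With GC bins centred, PTPRU (adjusted p = 0.309), SOX12 (0.383), RAP1GAP2 (0.0576) and PMEPA1 (0.0522) no longer passed.

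Each line's own change was then taken from a fit with 1 mean per group. By this other rule, 25 genes were higher in both lines (0.193% of those tested) and 11 lower in both (0.0849%). Of the rises, 20 were in both sets, 83.3% of the 24 and 80% of the 25, and of the falls 10 were, 76.9% of the 13 and 90.9% of the 11. Of the 24 shared rises 23 passed in Jurkat and 21 in BJAB, and of the 13 falls 12 and 11. The estimate was larger in Jurkat in 15 rises and 5 falls and larger in BJAB in 9 and 8. Leaving out 1 library at a time gave 7 to 130 genes higher and 0 to 330 lower in both lines, the most without BJAB stimulated replicate 2. A difference between the lines passed in 3.71% of all tested genes (481), and in 2 to 5180 with 1 library left out, the fewest without either stimulated Jurkat library. Among the 37 it passed for BCL2A1, SLAMF7 and CCL4.

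The 6 genes called in both lines separately but not in the common fit were named after their values were seen. CCR7, the receptor that guides lymphocytes into lymph nodes, had 3.51 and 2.83 TPM in the Jurkat controls, 23.3 and 28.4 TPM after stimulation, 1.01 and 0.233 TPM in the BJAB controls and 96.7 and 145 TPM after stimulation. CCL3, the chemokine next to CCL4 and like it present in near-identical copies, had 0 and 0, then 4.89 and 6.02 TPM in Jurkat, and 0 and 0.395, then 615 and 350.0 TPM in BJAB. KLF6, another Krüppel-like factor, had 13.4 and 11.6, then 25.7 and 27.5 TPM in Jurkat, and 8.87 and 9.5, then 81.4 and 92.6 TPM in BJAB. All 3 were higher in every stimulated library than in the controls, and the rise was larger in BJAB, with adjusted p-values of the difference of 0.0147, 0.00375 and 0.0172. PHLDA1 rose more in Jurkat, with 0.989 and 0.47, then 94 and 93.5 TPM in Jurkat, and 0.463 and 0.319, then 2.38 and 3.46 TPM in BJAB (adjusted p of the difference 0.00401). ASAP1, a GTPase-activating protein for ARF proteins, rose alike in the lines, by 1.04 ± 0.21 and 1.16 ± 0.21, and just missed the common threshold (adjusted p = 0.0535). The gene LOC105372493 was lower in both lines (adjusted p = 0.0535 in the common fit).

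The receptors that the ligands bind and their chains did not pass as shared changes. For CD3D, CD3E, CD79B and CD40 a shared change could hardly be seen, because each was low in 1 line. CD3D was at 2.77 TPM or less and CD3E at 1.36 TPM or less in BJAB, and CD79B at 1.09 TPM or less in Jurkat. CD3D had 2333 and 2098 TPM in the Jurkat controls and 2749 and 2709.5 TPM after stimulation, and CD3E had 371 and 393 TPM and 354 and 244 TPM. In BJAB, CD79A had 1514 and 1729 TPM in the controls and 284 and 1305 TPM after stimulation, and CD79B had 3005 and 3082 TPM and 321 and 1106 TPM. Both CD79 chains were far lower in BJAB stimulated replicate 1 than in replicate 2. Their adjusted p-values were 0.374 and 0.306 in the common fit, and 0.222 and 0.0701 for BJAB on its own. CD40 was listed at 0 in all 4 Jurkat libraries and had 39.2 and 43.2 TPM in the BJAB controls and 38 and 71.2 TPM after stimulation. CD247, the zeta chain of the T cell receptor, had 251 and 277 TPM and 267 and 247 TPM in Jurkat. In BJAB it had 26.2 and 29.7 TPM and 7.93 and 8.98 TPM, and there it fell (-1.62 ± 0.20, adjusted p = 0.013), which differed from Jurkat (adjusted p = 0.0344). PPIF, the mitochondrial cyclophilin D, had 197 and 201 TPM in the Jurkat controls, 339 and 289.7 TPM after stimulation, 198 and 279 TPM in the BJAB controls and 185 and 255 TPM after stimulation (adjusted p = 0.502).

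None of the 37 tested genes of receptor-proximal signalling passed in limma. At an unadjusted p below 0.05, 4 were higher and 8 lower, and voom on the recovered reads also called none. In both lines 3 lay above (8.11%) and 7 below the controls (18.9%), beside 4.61% and 13.1% of all tested genes. The median was -0.22. Leaving out BJAB stimulated replicate 1, 2 rose and 1 fell. Of 29 tested inhibitors of receptor signalling none passed either (2 higher and 5 lower at an unadjusted p below 0.05, 1 higher with voom), with 1 above (3.45%), 7 below (24.1%) and a median of -0.24. With that library left out, 2 of these rose and 1 fell, PTPN7 among the rises (adjusted p = 0.0212). Of its abundant members PTPRC and PTPN7, PTPRC is not a plain inhibitor, since it encodes the phosphatase CD45 that activates Src-family kinases. Both were higher in the stimulated Jurkat libraries, PTPRC at 149 and 116 TPM in the controls and 298 and 280.3 TPM after stimulation. In BJAB PTPRC had 237 and 215 TPM and then 189 and 136 TPM. Among the 19 tested genes of the calcium and NFAT branch none passed (2 higher and 2 lower at an unadjusted p below 0.05, none with voom), and 1 rose and 1 fell without BJAB stimulated replicate 1. STIM1, the calcium sensor of the endoplasmic reticulum, had 59.9 and 57.1 TPM in the Jurkat controls and 63.9 and 49.6 TPM after stimulation, and NFATC3 had 46 and 37 TPM and 61.9 and 51.4 TPM.

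The cell cycle and interferon-stimulated lists had medians below that of all genes and no member that passed. Of 25 tested cell cycle genes none passed in limma or with voom (0 higher and 8 lower at an unadjusted p below 0.05). None lay above the controls in both lines and 12 (48%) lay below, against 13.1% of all tested genes, with a median of -0.58 beside -0.16 for all genes. PCNA, the sliding clamp of DNA replication, had 609 and 489.5 TPM in the Jurkat controls, 385 and 416 TPM after stimulation, 334 and 360.4 TPM in the BJAB controls and 368 and 317 TPM after stimulation, and CCNB1, the mitotic cyclin B1, had an adjusted p of 0.386. CDKN2D, an inhibitor of CDK4 and CDK6 chosen after its values were seen, had 64.7 and 51, then 14.1 and 20.4 TPM in Jurkat, and 26.9 and 22.3, then 5.22 and 16.5 TPM in BJAB (adjusted p = 0.124). The interferon-stimulated list had 1 of 27 members above (3.7%) and 10 below (37%), a median of -0.54 and no call in limma (0 higher and 9 lower at an unadjusted p below 0.05, 1 lower with voom). ISG15, a ubiquitin-like modifier, had 272 and 334 TPM in the Jurkat controls, 209 and 244 TPM after stimulation, 252 and 207 TPM in the BJAB controls and 189 and 110.5 TPM after stimulation (adjusted p = 0.273), and IFI6 had an adjusted p of 0.911. Without BJAB stimulated replicate 1, 2 cell cycle genes and 2 interferon-stimulated genes fell.

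Of 14 tested genes listed under receptor gene recombination and the pre-receptors, CD1D was the 1 that fell. It presents lipid antigens, so the list's 1 call does not concern recombination or the pre-receptors. In both lines 4 of the 14 (28.6%) lay below the controls, beside 13.1% of all tested genes, and the median was -0.56. Without BJAB stimulated replicate 1, 4 fell, among them IGLL1, the surrogate light chain (chosen after its values were seen), with 301 and 297 TPM in the Jurkat controls, 111 and 126 TPM after stimulation, 198 and 182 TPM in the BJAB controls and 69.7 and 145 TPM after stimulation. No member of 4 further lists passed in limma, and without BJAB stimulated replicate 1 a single gene fell on each of 3 of them (growth, quiescence and sterol synthesis). The growth and ribosome biogenesis list (30 tested) had a median of -0.13, 1 higher and 3 lower at an unadjusted p below 0.05 and none with voom. NPM1, a chaperone of ribosome assembly, had 2010.5 and 1926 TPM in the Jurkat controls, 1850.1 and 1804 TPM after stimulation, 2092 and 2179.7 TPM in the BJAB controls and 2408 and 2273 TPM after stimulation, and NCL had an adjusted p of 0.286. The quiescence and FOXO list (22 tested) had a median of -0.23, 3 higher and 6 lower at an unadjusted p below 0.05 and none with voom. Its member BCL6, the germinal centre repressor, had 3.43 and 3.06 TPM, then 21.4 and 23.7 TPM in Jurkat, and 502 and 450.5 TPM, then 57.4 and 336 TPM in BJAB, higher after stimulation in Jurkat and lower in BJAB (adjusted p of the difference 0.0855). CXCR4, a chemokine receptor on the same list, had 523 and 472 TPM, then 192 and 188 TPM in Jurkat and fell there (adjusted p = 0.0308), and was at 0.347 TPM or less in BJAB. The sterol and lipid synthesis list (24 tested) had a median of -0.05, 3 higher and 6 lower at an unadjusted p below 0.05 and 1 lower with voom. FDPS, farnesyl diphosphate synthase, had an adjusted p of 0.265 and INSIG1, which restrains sterol synthesis, 0.364. The housekeeping list (28 tested) had a median of -0.18, 3 higher and 1 lower at an unadjusted p below 0.05 and none with voom. GAPDH had 6061 and 6449 TPM in the BJAB controls and 1546 and 5229 TPM after stimulation.

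Lineage markers were followed as a check of other cell types. Each BJAB library had 6 or 7 of 22 T cell markers at 1 TPM or more. Each Jurkat library had 6 to 8 of 24 B cell markers there, so a shared change could hardly be seen in most. None of 21 tested T cell markers (median -0.14, 3 higher and 6 lower at an unadjusted p below 0.05, 1 lower with voom), 21 B cell markers (median -0.63, 0 and 5, none with voom) or 13 monocytic markers (median 0.04, 0 and 2, none with voom) passed in limma. Leaving out BJAB stimulated replicate 1, 1 T cell marker (CD3G) and 1 B cell marker (CD72), both named after their values were seen, fell. The B cell markers summed to 9185 to 9750 TPM in the BJAB controls and 4097 to 6856 TPM after stimulation, with CD74 at 1717 and 1664 TPM in the controls and 1567 and 1705 TPM after stimulation. In the Jurkat libraries LCK, the kinase of the T cell receptor, had 1288 and 1161 TPM in the controls and 1253 and 1349 TPM after stimulation. The monocytic markers summed to 582.7 to 618 TPM in the Jurkat controls, of which CTSG made up 485 and 489.7 TPM and AIF1 76.4 and 103 TPM, and to 402 to 428 TPM after stimulation. In BJAB they summed to 144 to 166 TPM and then 65.2 to 106 TPM, and 14 to 17 of the 28 were at 0 in each BJAB library. The part of these shifts in the shared genes was not tested.

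**Figure D4:**
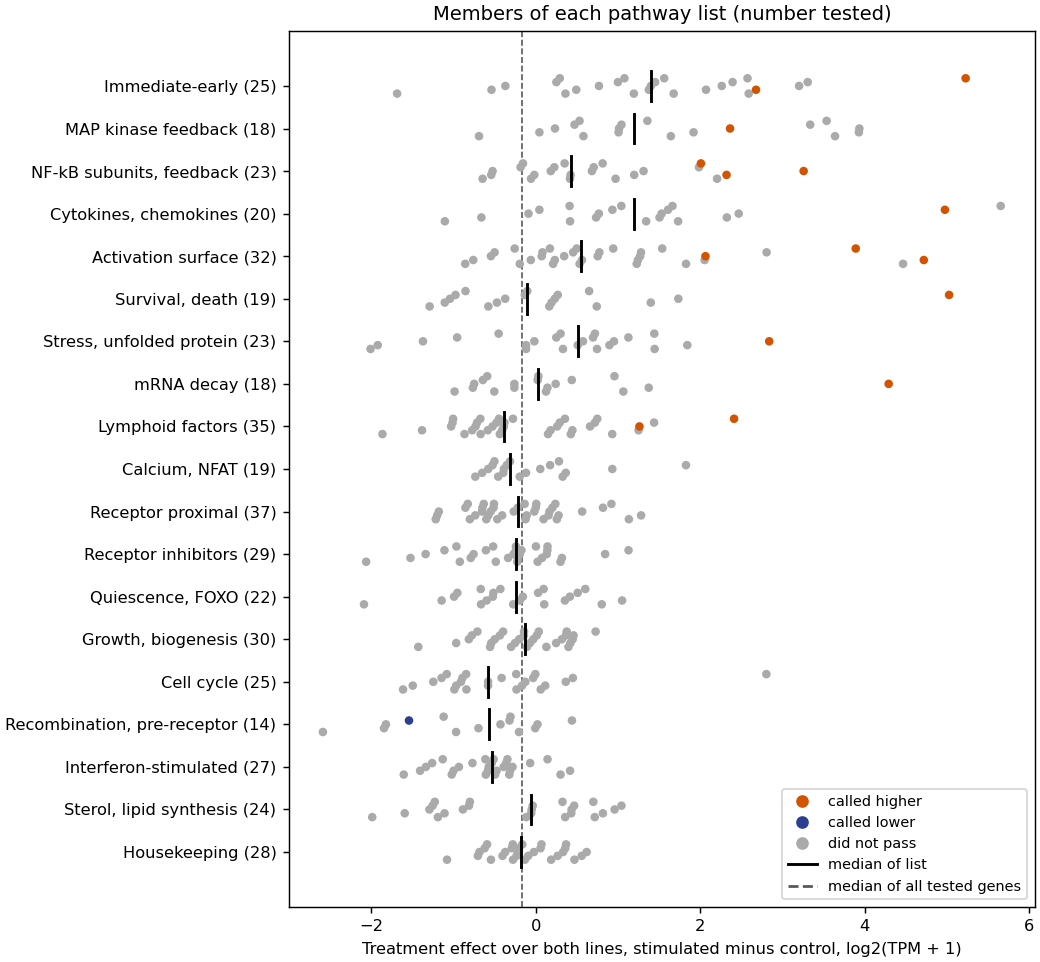
Treatment effect over both lines, stimulated minus control in log2(TPM + 1), of each tested member of 19 gene lists, with calls in colour, the median of each list as a black bar and the median of all tested genes (-0.16) as a dashed line. The immediate-early list has the highest median, 1.40, and the cell cycle list the lowest, -0.58.

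LPS in the monocytic lines gave a set of libraries that shares no control with the lymphocyte lines. There 6 genes were called higher (0.0469% of 12799 tested) and none lower (0%), with 140 higher and 323 lower at an unadjusted p below 0.05. U937 stimulated replicate 1 stood apart, with a median difference from its controls of -0.55 to -0.69 in each of the 5 GC groups, and without it 13 genes were called. Of the 24 shared rises, 20 were tested and 2 were called higher with LPS too, CCL4 and NFKBIA. Of the 20, 9 had an estimated change above 0. CCL4 was listed at 0 in the 4 monocytic controls and had 16.1 and 17.2 TPM in THP-1 and 53.2 and 25.3 TPM in U937 after LPS (adjusted p = 0.00138). NFKBIA went from 85.5 and 77.3 to 213 and 187 TPM in THP-1 and from 57.3 and 65.6 to 175 and 174 TPM in U937 (1.39 ± 0.16, adjusted p = 0.0435). Both calls held without U937 stimulated replicate 1 (adjusted p = 2.35e-05 and 0.00133).

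EGR1 and CD69 did not pass with LPS. EGR1 had 8.12 and 11.4 TPM in the THP-1 controls, 13.8 and 16.7 TPM after LPS, and in U937 4.6 and 3.07 TPM without and 0.863 and 1.89 TPM with LPS (-0.22 ± 0.37, adjusted p = 0.776). CD69 had 0.358 and 0 TPM, then 0 and 0 TPM in THP-1, and 68.5 and 60.2 TPM, then 45.2 and 63 TPM in U937 (adjusted p = 0.615). BACH2, ZFP36L1, GEM, BIRC3 and, among the falls, MAP1A stayed at 1.49 TPM or less in all 8 monocytic libraries. The 20 rises had a median of -0.22 with LPS, beside -0.20 for all tested genes, and 5 of the 20 were higher at an unadjusted p below 0.05. The 12 falls that were tested had -0.35, with none called and none at an unadjusted p below 0.05. Without U937 stimulated replicate 1 these medians were 0.07 and -0.11, beside -0.06 for all genes.

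In a fit of all 16 libraries the lymphocyte change differed from the monocytic change in 0.0764% of 14398 genes (11). Of these, 8 were shared rises (EGR1, ZFP36L1, GEM, CD69, BCL2A1, DDIT3, KLF10 and BACH2) and 1 a shared fall (MAP1A). Since the lymphocyte libraries by which the genes were chosen enter this difference, it is a description. It was 5.45 ± 0.50 for EGR1 (adjusted p = 0.000111) and 4.13 ± 0.27 for CD69 (adjusted p = 3.68e-06). For NFKBIA the difference was 0.93 ± 0.31 (adjusted p = 0.50), and 1.22 without BJAB and U937 stimulated replicate 1 (adjusted p = 0.00859). It was 1.24 ± 0.40 for NFKB1 (adjusted p = 0.463) and for CCL4 0.29 ± 0.63 (adjusted p = 0.928). Without U937 stimulated replicate 1 there were 33 genes, 16 of them shared rises and 7 shared falls, and without BJAB stimulated replicate 1 as well there were 100, with 20 and 8.

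**Figure D5:**
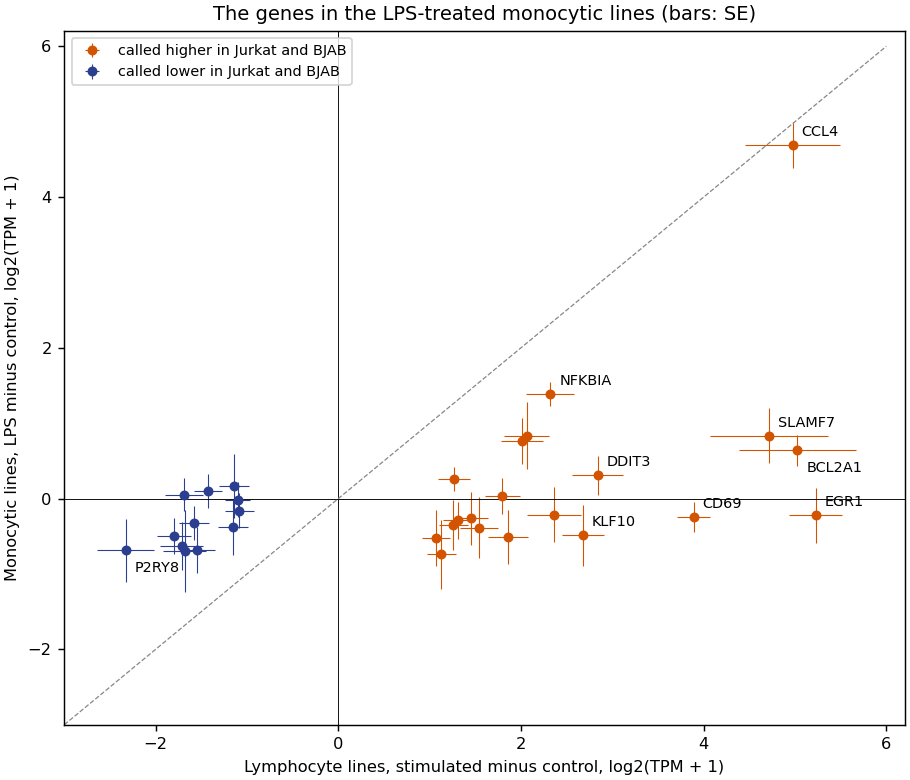
Change over the lymphocyte lines (x axis) against the change over the LPS-treated monocytic lines (y axis), in log2(TPM + 1) with standard errors as bars, for the 20 shared rises and 12 shared falls tested in both. CCL4 lies next to the dashed line of equal change, and EGR1 and CD69 lie at -0.22 and -0.24 on the monocytic axis.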

How the data were processed

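RNA was made into libraries by SmartSeq2 from an oligo-dT primer, per the labels' protocols, and aligned with TopHat2 to hg19, per the submitters' processing notes. For the read counter and its annotation, the name is not given in the sources used here. Values are TPM per gene and library as the authors deposited them, from unique alignments. Whole reads could be recovered from the steps of the TPM for 17860 of 19092 genes above 0 (93.5%, within 0.001 of a whole number), and depth is the sum of these reads.

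Genes with at least 1 TPM in at least 2 of the fitted libraries were tested on log2(TPM + 1) with limma 3.58.1 in R 4.3.3 (trend of the spread with level, two-sided, Benjamini-Hochberg over all tested genes, threshold 0.05). A fold change on this scale understates the change of low genes. The common fit had the line as covariate (5 residual degrees of freedom), so its residual spread includes any difference between the lines in their change. Each line's own change and the difference of the lines came from a fit with 1 mean per group (4 residual degrees of freedom). That fit leaves such a difference out of the spread. The common fit of the lymphocyte lines was tested on simulated data, and the other fits were not. For each gene the simulation had the same spread in all libraries and the same change in both lines. The members and gene lists were chosen with earlier results of these data known.

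Named genes were taken among shared genes with a mean of at least 5 TPM in the higher group of each line. They were the 14 rises and up to 12 falls with the largest smaller change of the 2 lines, and fewer than 12 falls met that minimum. Of each list, up to 6 shared members were added, or else the 2 tested members with the highest level, and the receptor genes and PPIF. The shared genes still outside this rule were added too, which made 64 named genes. Alternatives changed the pseudocount, filter, scaling, trend, weights, design and libraries. Voom on the recovered reads, centring of 20 GC bins, and leaving out each library for the line difference and the monocytic results were added after seeing the data. Genes encoded in mitochondria were not analysed here, and 1 of the 24 shared rises is counted but not reported here by name.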

Additional observations from a re-analysis of the deposited data

Results flagged for a closer look

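A test of the difference itself separated the change in Jurkat from that in BJAB for 4 of the 64 named genes (limma, Benjamini-Hochberg over 12959 genes). It also passed for DUSP5, CCR7, CCL3, KLF6 and PHLDA1, which are described above and lie outside these 64. BCL2A1, the survival gene, changed more in Jurkat, with a difference (Jurkat minus BJAB) of 3.42 on the log2 scale and an adjusted p of 0.0112. SLAMF7, the receptor of the SLAM family, changed more in BJAB, with a difference of -3.37 and an adjusted p of 0.0172. CCL4, the chemokine, also changed more in BJAB, with a difference of -2.56 and an adjusted p of 0.0449, from controls at 0 in both lines. CD247, the zeta chain of the T cell receptor, had a difference of 1.58 and an adjusted p of 0.0344, from a lower level after stimulation in BJAB. The ligands differed between the lines, so line and ligand cannot be told apart in these differences.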

How the results depend on the processing

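The common fit called 24 genes higher and 13 lower, all of them shared. Called genes numbered 39 higher with median-of-ratios scaling, and 54 higher and 25 lower with quantile normalization, with the same numbers shared. A pseudocount of 0.1 gave 7 lower, and no filter on low values also gave 7, all shared. Array weights, which gave BJAB stimulated replicate 1 a weight of 0.08, called 679 higher and 797 lower, 255 and 526 of them shared. The mean of the lines from 1 coefficient per group called 371 higher and 400 lower (147 and 236 shared). There the residual spread leaves out a difference between the lines. A fit of all 16 libraries called 102 and 152 (100 and 150 shared). Voom on the recovered reads called 48 higher and 32 lower (45 and 32 shared), and centring GC bins called 58 and 25, all shared. Leaving out 1 library at a time gave 4 to 173 higher and 0 to 209 lower, and the same for shared genes, with 1414 to 2861 genes at an unadjusted p below 0.05. The group left with 1 sample was then assumed to vary like the others.

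Genes called in each line separately, 25 higher and 11 lower, became 45 higher with centred GC bins. The lower ones became 6 with a pseudocount of 0.1, 7 with quantile normalization, 2 with array weights and 25 with all 16 libraries. With 1 library left out they ranged from 7 to 130 higher and 0 to 330 lower. The difference between lines (481 genes) ranged from 2 to 5180, the monocytic effect (6 genes) from 2 to 13, and the lymphocyte minus monocytic difference (11 genes) from 8 to 33. That difference was called in 23 genes with a pseudocount of 5, 20 with median-of-ratios scaling, 26 with quantile normalization and 100 without BJAB and U937 stimulated replicate 1. The cause of these moves was not tested.

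Same-numbered libraries deviated together only weakly (correlation 0.02 in Jurkat and 0.15 in BJAB). The replicate numbers are not taken as pairs in the main fits, and the calls depend on that choice. With the replicate number as a block, limma called 3 genes higher (EGR1, CD69 and ZFP36L1) and 0 lower, all shared, with 1642 genes at an unadjusted p below 0.05. The block left 9 genes higher and 0 lower in both lines separately, 63 for the difference between lines and 3 for the monocytic effect. For the shared genes among the 64 named genes no direction reversed. Genes that did not pass could change sign. Without BJAB stimulated replicate 1, AIF1 went from 0.11 to -0.13 and CTSG from 0.07 to -0.35. Over the 64 named genes, 1051 gene and setting pairs kept their side of the threshold, 6 gained and 286 lost a call.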
